A study of Mus musculus with 884 samples.

Results

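The loci of 8 mouse genes that regulate mesoderm or endoderm, Sox17, Foxa2, Gata4, Gata6, Sox7, Kdr, Hand1 and Mesp1, were followed by single-cell replication profiling during neural differentiation. Each locus was taken as the 80 kb bin that holds the gene, at a stated mm9 position, plus 400 kb on either side. The 8 windows covered 87 of the 30890 autosomal bins. The Gata4 gene spans 2 bins, so that its window had 12 bins and the other windows 11, and the neighbouring Gata4 and Sox7 windows share 2 bins. The genes were picked for their function, with earlier results of these data known.

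The series held 884 single cells, of which 877 had one unambiguous group. Female CBMS1 embryonic stem cells (strain CBA/MsM) in 2i/LIF medium were the d0 state. They were turned into epiblast-like cells over 2 days and then grown as aggregates in plain GK15 medium with no added factors, a course towards neurectoderm sampled after 2, 3, 4, 5, 6 and 7 days (written d2 to d7 below). Female epiblast stem cells (EpiSC) were kept in Activin/FGF medium and carry another strain label, C57BL6, and in comparisons with EpiSC the state and the strain cannot be told apart. The genomes of sorted single cells were amplified and sequenced, and every 80 kb bin of a cell was called replicated or not replicated by the authors. The calls do not separate the alleles of these hybrid cells.

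A cell's replication score is the percentage of its called autosomal bins that had replicated, and thus its place in S phase. All shares below come from cells with scores of 40 to 70%, unless other scores are named. There were 293 such cells. The embryonic stem cells gave 59 and EpiSC 26, days 2 and 3 gave 35 and 13, days 4, 5 and 6 gave 18, 20 and 21, and all others came from day 7. Their mean scores lay between 52.3% on day 2 and 57.1% in EpiSC. A locus with a higher share of cells replicated in this middle part of S phase replicates earlier. Each state is 1 sample, because no label names separate cultures. Cells are therefore not replicates, no p-value was computed, and states were compared by a fixed size of 30 percentage points. Ranges in parentheses after a share of cells are exact Clopper-Pearson 95% intervals, which cover counting error only.

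Mammalian DNA replicates in large domains, and early replication generally goes with open, transcriptionally active chromatin. Timing of many domains is reset as pluripotent cells commit to a lineage, and a gene that is silent may still lie in an early domain. SOX17, FOXA2, GATA4, GATA6 and SOX7 are transcription factors of the endoderm lineages, embryonic or extraembryonic, with GATA4 and GATA6 also acting in heart mesoderm. MESP1 and HAND1 are transcription factors of early and cardiac or extraembryonic mesoderm, and KDR is the VEGF receptor that marks blood and vessel progenitors. FOXA2 also acts outside the endoderm, in the floor plate of the neural tube. Expression was not measured in these cells, so the labelled states could not be checked against marker genes.

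The 8 loci fell into 4 that were at 80% or more in every state and 4 that were below 80% in some state. Gata4, Sox7, Hand1 and Mesp1 had mean window shares (the mean over the bins of a window of the percentage of cells replicated) between 88.4% and 100% in each of the 8 states. Over the autosomes, 24% of 28818 windows of 11 bins were likewise at 80% or more in every state, so the early position of these 4 loci is a common one. Sox17, Foxa2, Gata6 and Kdr ranged over 52.5, 66.6, 30.9 and 66.2 points between their lowest and highest states. A range as large as that of Foxa2 was seen in 1.90% of windows, of Kdr in 1.99%, of Sox17 in 8.03% and of Gata6 in 34%, and the median window ranged over 22.3 points. Genes in the first group and in the second include both mesoderm and endoderm regulators.

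**Figure D1:**
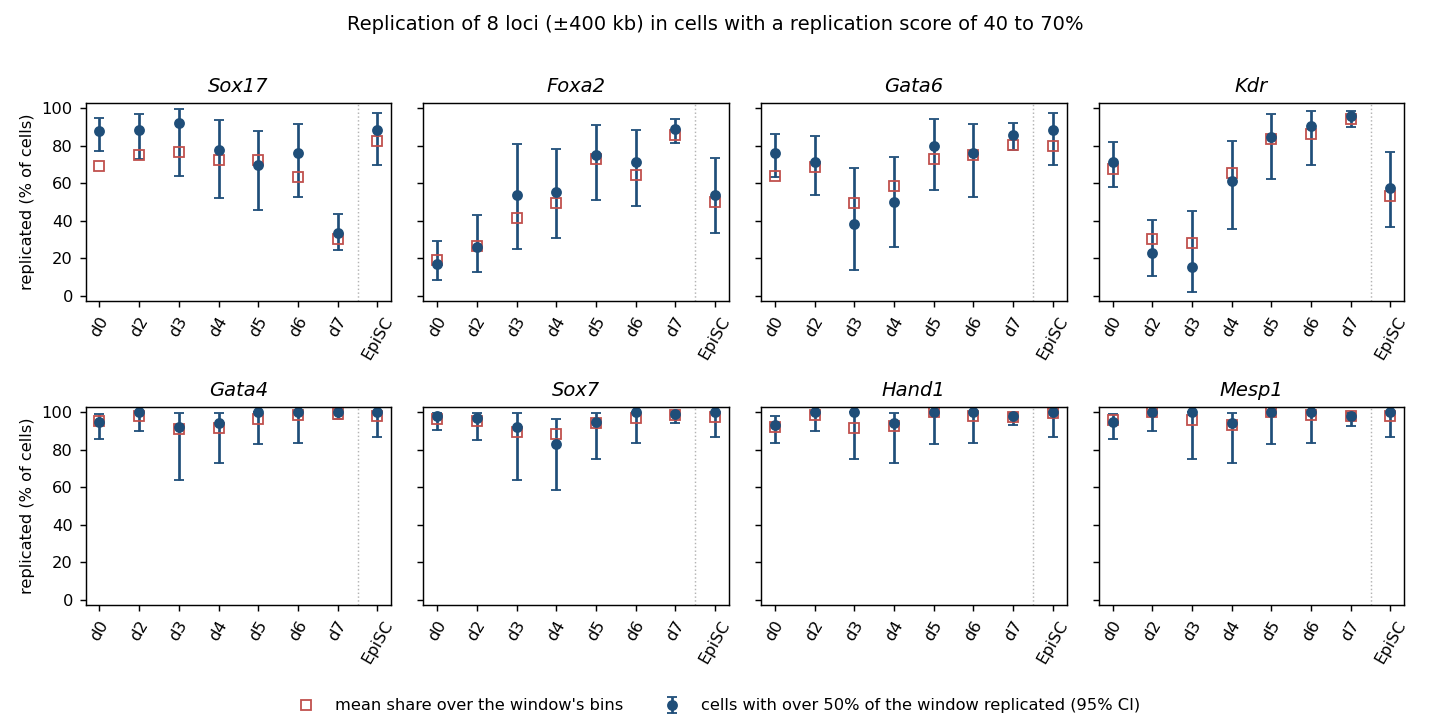
Replication of the 8 loci in cells with a replication score of 40 to 70%, by state. Filled circles are the percentage of cells with over 50% of the window replicated, with exact 95% intervals for counting error; open squares are the mean share over the bins of the window. Sox17 drops at d7, Foxa2 climbs from d0 to d7, Kdr dips at d2 and d3, and the 4 loci of the lower row stay at 88.4% or more on the window mean.

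Between d0 and d7, 1 of the 8 windows became earlier by 30 points or more (Foxa2) and 1 became later (Sox17), where 6.19% and 5.65% of all windows did so. Against d0, Foxa2 was also the one locus earlier by 30 points or more at d4, at d5 and again at d6 (1.72%, 2.79% and 4.32% of all windows), and none was later (3.49%, 3.24% and 5.95%). These 3 calls did not hold against the 9 d0 cells of the present series, the series of all d4, d5 and d6 cells: there the differences were -10.1, 13.6 and 4.91 points. From d0 to d7 the median difference was 4.57 points over the 8 loci and 0.75 points over all windows. Between d0 and EpiSC, Foxa2 was earlier by 30 points or more and no locus was later, against 5.31% and 4.51% of all windows. Between EpiSC and d7, Foxa2 and Kdr were earlier and Sox17 was later, against 3.03% and 3.84% of all windows. With 8 loci, counts of 1 or 2 cannot be set apart from these backgrounds, and the loci are described one by one below. The comparisons share cells: the d0 cells serve in every comparison with d0, and the EpiSC and d7 cells also in the one between them.

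Foxa2, a pioneer factor of definitive endoderm, the node and the floor plate, lies at chr2:147840001-147920000 (mm9 bin), between Pax1 and Sstr4 in the RefSeq gene order. Its mean window share was 19.1% in embryonic stem cells, 26.8 and 41.3% on days 2 and 3, 49.5, 73.2 and 64.5% on days 4, 5 and 6, 85.7% on day 7 and 50% in EpiSC. The window was thus late in embryonic stem cells, in the middle at d3 and d4, and early at d7. Over 50% of the window had replicated in 10 of 59 cells at d0 (16.9%, 8.44 to 29%), in 10 of 18 at d4 (55.6%, 30.8 to 78.5%), and at d7 in 90 cells and not in 11 (89.1%, 81.3 to 94.4%). In EpiSC the count was 14 of 26 (53.8%, 33.4 to 73.4%), so that the intervals of d0, EpiSC and d7 do not overlap. The d0 to d7 difference of 66.6 points was reached or exceeded by 0.241% of all windows.

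The earlier calls at Foxa2 were centred on the gene in the middle days. At d3 the share was 69.2% in the gene bin, 23.1% at 400 kb below it (towards lower coordinates) and 7.69% at 400 kb above it. At d4 these values were 77.8%, 38.9% and 16.7%. The run of consecutive bins at 50% or more that holds the gene was 0.48 Mb long on both days, where at d0 the gene lay in a run of 1.28 Mb under 50%. By d5 the run at 50% or more measured 2.96 Mb, by d6 3.12 Mb and by d7 3.28 Mb. Most of the added length lay below the gene, to 2640 kb from its bin at d7. In EpiSC the run was 0.4 Mb. The upper edge stayed within 160 to 560 kb of the gene bin from d3 to d7 and in EpiSC. The runs of d5 to d7 include DNA outside the late run of d0. That run under 50% ended 560 kb below the gene bin at d0, and 720 kb below it at d2. Shares farther below at d0 are not given here, so the run lengths do not measure how much DNA became earlier. With 800 kb either side the d0 to d7 difference was 43 points.

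Cells in other parts of S phase, which the 40 to 70% range leaves out, also differed between states at Foxa2. In cells with scores of 5 to 40%, 0 of 48 had replicated the window at d0 (0 to 7.40%), 0 of 19 in EpiSC (0 to 17.6%) and 14 of 33 at d7 (42.4%, 25.5 to 60.8%). In cells with scores of 70 to 95%, 38 of 50 had done so at d0 (76%, 61.8 to 86.9%) and 55 of 55 at d7. The replication score at which 50% of cells had the window replicated, from a logistic curve fitted to each state, was 69.75 at d0 (95% likelihood interval 66.5 to 73), 57 in EpiSC (51 to 61.25) and 30 at d7 (24.25 to 35.5). The fit placed d5 at 44.75 and d6 at 37.75, with intervals that overlap each other.

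The Foxa2 value at d0 differed between cells of the group's previous series and those of the present one. Of the 50 previous-series cells 5 had the window replicated (10%, 3.33 to 21.8%), and of the 9 present-series cells 5 had (55.6%, 21.2 to 86.3%). In 3 of these 9 cells the autosomal bins were called in an order unlike the mean profile (area under the curve below 0.8), and without them 2 of 6 cells had Foxa2 replicated (33.3%, 4.33 to 77.7%). The d0 to d7 difference was 74.7 points in the previous series alone and 25.7 points in the present series alone. The d0 to EpiSC difference, 30.9 points with all cells, was -9.60 points with present-series cells alone, all EpiSC cells being of that series. With d0 cells paired in score to the EpiSC cells it was 29 points. Without cells of an area below 0.8, present-series Foxa2 was 8.73 points earlier than at d0 on day 4 (17 cells), 33.8 on day 5 and 25.1 on day 6. The d2 share was 26.8%, in 35 cells that are all of the present series, and the present-series d7 share was 85.3% in 66 cells. The part of the series in the d0 values was not tested.

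Kdr, the receptor that marks the progenitors of blood and vessels, lies at chr5:76320001-76400000 (mm9 bin), between Kit and Srd5a3 in the gene order. Its mean window share was 67.7% in embryonic stem cells, 30.4 and 28% on days 2 and 3, 65.7, 83.6 and 86.1% on days 4, 5 and 6, 94.1% on day 7 and 53.1% in EpiSC. The locus was therefore latest at d2 and d3 and earliest at d7. The window had replicated in 42 of 59 cells at d0 (71.2%, 57.9 to 82.2%), in 8 of 35 at d2 (22.9%, 10.4 to 40.1%), in 2 of 13 at d3 (15.4%, 1.92 to 45.4%) and at d7 in 97 cells and not in 4 (96%, 90.2 to 98.9%). The d0 to d2 and d0 to d3 differences of -37.3 and -39.7 points made Kdr the only one of the 8 loci to become 30 points later in these comparisons, where 3.49% and 4.64% of all windows did so. No locus became 30 points earlier at d2 or d3, against 0.599% and 2.42% of windows.

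The size of the Kdr dip depended on which d0 cells were used. With d0 cells paired in score to the d2 cells the difference was -25.8 points, and with those paired to the d3 cells it was -23.8 points, both under the 30-point size. With present-series d0 cells alone they were -30.3 and -32.8 points. The deposited d2 cells were corrected against 2 different G1 controls, and the window had replicated in 6 of 12 cells with the first (50%, 21.1 to 78.9%) and 2 of 23 with the second (8.70%, 1.07 to 28%), with mean scores of 54.9% and 51%. Whether the control plays a part in this difference was not tested. The fitted score of replication, which uses cells from all of S phase, was 48.25 at d0 (44.75 to 51.5), 65 at d2 (59.75 to 70.5), 65.75 at d3 (61 to 73.25), 50 at d4 (41 to 58.75) and 32 at d7 (25.75 to 35.75). The d2 and d3 intervals lie above that of d0. In cells with scores of 70 to 95%, 26 of 31 had the window replicated at d2 (83.9%, 66.3 to 94.5%), against 50 of 50 at d0.

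The low calls at Kdr formed a narrow trough. At d2 the gene bin stood at 22.9%, the bin 320 kb below it at 5.71% and the bin 400 kb above it at 62.9%. The run of bins under 50% was 0.8 Mb at d2 and 0.96 Mb at d3. It lay inside a region that was at 50% or more over 6 Mb at d0 and over 5.04 to 5.68 Mb from d4 to d7. The length of this region at d0 and d4 rests on bins close to that cut. At d0 the bins of the window below the gene bin were at 50.8 to 57.6%. At d4 the bin 240 kb below it was at 50% (9 of 18 cells). In EpiSC the 4 lowest-coordinate bins of the window were at 19.2 to 26.9% and the other 7 at 61.5 to 84.6%, with the step between 160 and 80 kb below the gene bin. In 18 of 26 EpiSC cells the window held a single change of call with the replicated side at higher coordinates.

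The sequences upstream of Foxa2 and Kdr are given because these were the 2 loci that were 30 points or more earlier at d7 than in EpiSC. RefSeq promoters were found for 3 of the 8 genes. Each line is the 250 bases before the start of transcription on the minus strand in the GRCm38.p6 build, 5′ to 3′, with the dinucleotide CG, which reads the same on both strands, in capitals. For Foxa2 the most upstream of 3 listed starts was used, at chr2:148046970-148047219, and the Kdr stretch is chr5:75978456-75978705.
Foxa2: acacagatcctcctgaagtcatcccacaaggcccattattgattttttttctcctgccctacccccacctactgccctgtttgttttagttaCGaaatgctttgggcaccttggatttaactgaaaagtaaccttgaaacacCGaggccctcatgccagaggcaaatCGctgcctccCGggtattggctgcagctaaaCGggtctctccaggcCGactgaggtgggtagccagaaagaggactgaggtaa
Kdr: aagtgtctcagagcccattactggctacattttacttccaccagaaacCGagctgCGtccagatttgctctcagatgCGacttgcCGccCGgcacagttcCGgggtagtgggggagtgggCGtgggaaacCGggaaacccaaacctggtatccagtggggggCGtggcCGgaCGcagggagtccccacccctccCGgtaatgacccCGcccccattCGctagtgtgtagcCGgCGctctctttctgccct
Foxa2 has 6 CG dinucleotides and a GC content of 50.8%, and Kdr 16 and 61.6%. Among 32851 mouse promoter stretches of this length, 50.4% have at least 6 CG and 25.4% at least 16, and the median GC content is 52.4%. The upstream sequences of this earlier-replicating pair thus differ in CG content, with Foxa2 at the median. An 80 kb call is far wider than a promoter, and it carries no information on these bases.

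Sox17, the endoderm and endothelial SOX factor, lies at chr1:4480001-4560000 (mm9 bin) between Rp1 and Mrpl15, 4.48 Mb from the start of the chromosome. Its mean window share was 69.5% in embryonic stem cells, 75.3 and 76.9% on days 2 and 3, 72.2, 72.7 and 63.2% on days 4, 5 and 6, 30.1% on day 7 and 82.5% in EpiSC. The share lay between 63.2% and 76.9% up to d6, and d7 alone was low. The window had replicated in 52 of 59 cells at d0 (88.1%, 77.1 to 95.1%), in 16 of 21 at d6 (76.2%, 52.8 to 91.8%), in 23 of 26 of EpiSC (88.5%, 69.8 to 97.6%), and at d7 in 34 cells and not in 67 (33.7%, 24.6 to 43.8%). The d7 interval overlaps none of those 3.

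The difference fell between the last sampled days. From d6 to d7 Sox17 was 33.1 points later, and 0.0998% of all windows were 30 points or more later in that step. With present-series cells alone, 21 from d6 and 66 from d7, the difference was -29.8 points, just under the size. None of the other 7 loci moved by 30 points between d6 and d7, and 0.327% of windows became earlier. From d0 to d7 the difference was -39.4 points and from EpiSC to d7 it was -52.5 points, which 0.502% of windows matched or passed. The fitted score of replication stood at 38.75 at d0 (35 to 42.5), 41.75 at d6 (34.75 to 48.75), 62.25 at d7 (58.75 to 65.5) and 40.5 in EpiSC (32.5 to 46.25). In cells with scores of 70 to 95%, 50 of 55 had the window replicated at d7 (90.9%, 80 to 97%) and 50 of 50 at d0. At d7 the mean window share was 23.9% in 35 cells of the previous series and 33.3% in 66 of the present one. By G1 control it was 42.6, 23.2, 32.7 and 43% in 22, 63, 5 and 11 cells, each below the lowest share of any other state.

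At Sox17 the window straddled the edge of an early domain. At d0 the share climbed from 13.6% at 400 kb below the gene bin through 88.1% in the gene bin to 98.3% at 400 kb above it. In 51 of 59 d0 cells the window held a single change from not replicated to replicated, with a median start of the replicated stretch 80 kb below the gene bin. The gene lay in a run at 50% or more that measured 0.72 to 1.52 Mb from d0 to d6 and 2.4 Mb in EpiSC. In EpiSC the run began at position 2960001, the first bin of the chromosome with enough calls. At d7 every bin of the window was under 50%, from 4.95% to 48.5%. The gene then lay in a run under 50% of 6.4 Mb that began at that same first bin with enough calls. The 4 bins at the upper end of the window, at 98.3 to 100% in d0 cells, were at 30.7 to 46.5% at d7. Of the 55 d7 cells with both calls in the window, 27 had a single change and 28 had more.

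**Figure D2:**
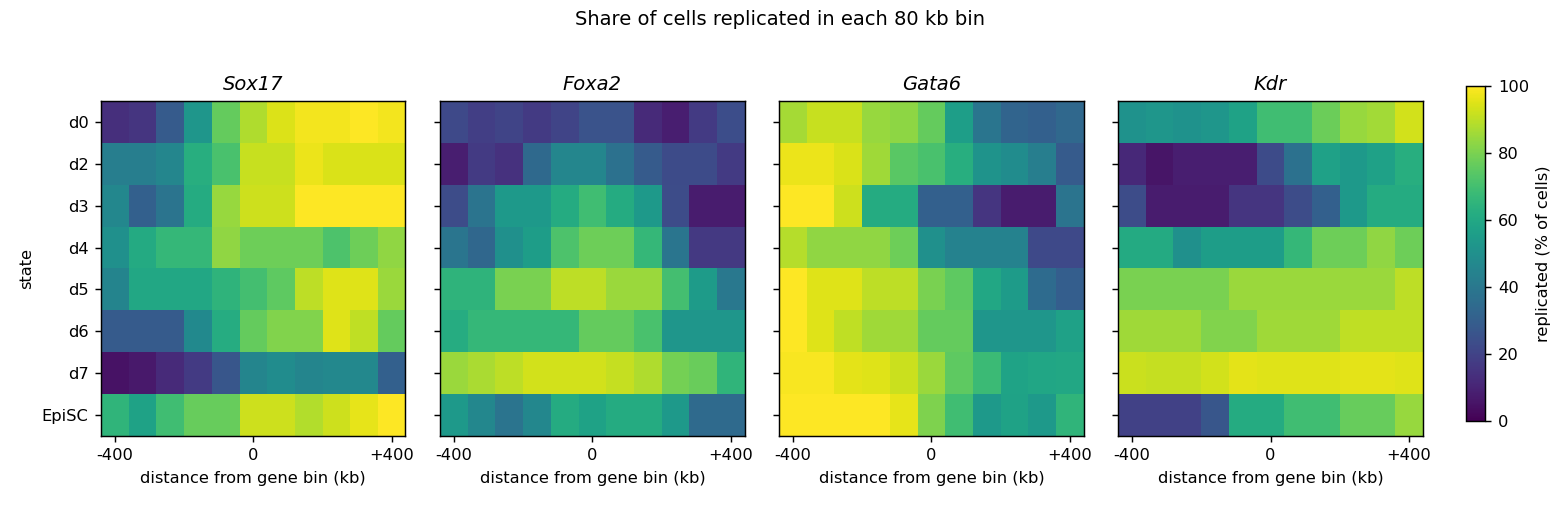
Percentage of cells replicated (colour, 0 to 100%) in each 80 kb bin within 400 kb of the gene bin, in cells with scores of 40 to 70%. The 4 loci with a mean window share below 80% in some state are shown, and rows are states. Sox17 and Gata6 lie on steps of opposite orientation, Foxa2 has its highest share near the gene at d3 and d4, and Kdr has its lowest shares at d2 and d3.

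Gata6, the GATA factor of primitive endoderm and of heart and gut progenitors, lies at chr18:11040001-11120000 (mm9 bin) between Mib1 and Rbbp8. Its mean window share was 64.1% in embryonic stem cells, 68.6 and 49.7% on days 2 and 3, 58.6, 73.2 and 74.9% on days 4, 5 and 6, 80.5% on day 7 and 79.7% in EpiSC. No comparison with d0, nor EpiSC with d7, reached 30 points on the window mean. The window had replicated in 45 of 59 cells at d0 (76.3%, 63.4 to 86.4%), in 5 of 13 at d3 (38.5%, 13.9 to 68.4%), in 86 of 100 at d7 (86%, 77.6 to 92.1%) and in 23 of 26 of EpiSC (88.5%, 69.8 to 97.6%). The d3 and d0 intervals overlap. With 13 d0 cells paired in score to the d3 cells, the d0 mean window share was 50.3% and the difference was -0.699 points. The window had replicated in 8 of these 13 d0 cells. At d2 the window had replicated in 12 of 12 cells with one G1 control and 13 of 23 with the other (56.5%, 34.5 to 76.8%). The part of the control in this was not tested.

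Gata6 lay on a step of the opposite orientation to that at Sox17. At d0 the share was 86.4% at 400 kb below the gene bin, 76.3% in it and 33.9% at 400 kb above it, and in 32 of the 42 d0 cells with both calls there was a single change with the replicated side below. The bin at 50% or more farthest above the gene lay 80 kb from the gene bin at d0, 160 kb at d2, 0 kb on day 4 and 240 kb on day 5. At d3 the gene bin itself was at 30.8%. At d6, d7 and in EpiSC the run at 50% or more continued for 4480, 4480 and 4320 kb above the gene bin. The step in the window was shallower: at d7 the window ran from 99% to 58%. The run lengths at d6 and in EpiSC rest on bins close to the cut. At d6 the bin 160 kb above the gene bin was at 52.4% (11 of 21 cells), and in EpiSC at 53.8% (14 of 26). At d3 the run under 50% ended 480 kb above the gene bin, so DNA beyond it was not all late before d6. The fitted score of replication was 48.75 at d0 (45.75 to 51), 57.5 at d3 (50 to 65.25), 39.25 at d7 (35.5 to 44) and 41 in EpiSC (33.25 to 46.5).

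Gata4, the cardiac and endodermal GATA factor, and Sox7, a SOX factor of endothelium and parietal endoderm, lie near each other at chr14:63760001-63920000 and chr14:64560001-64640000 (mm9 bins). Gata4 had a lowest mean window share of 91% at d3 and a highest of 99.2% at d7, and Sox7 of 88.4% at d4 and 98.7% at d7. Without 1 of the 18 d4 cells, which had an area under the curve below 0.8, Sox7 stood at 90.9% at d4, above its 89.5% at d3. The 2 genes lay in one run at 50% or more that measured 4.56 Mb at d3, 9.52 Mb at d0 and 14.8 Mb at d7. Nearly all cells of middle S phase had replicated both. In cells with scores of 5 to 40% at d0, Gata4 had replicated in 30 of 48 (62.5%, 47.4 to 76%) and Sox7 in 16 of 48 (33.3%, 20.4 to 48.4%), while at d7 each had in 20 of 33. Their fitted scores of replication were the latest of the 4 early loci at d0, 22.5 for Gata4 (14 to 27.25) and 31 for Sox7 (28 to 34.5). At d7 they were 24.25 (18.25 to 28.5) and 23.75 (18 to 28). In EpiSC they were 33.75 for Gata4 (29 to 37) and 24 for Sox7 (16.25 to 31), so Gata4 was later in EpiSC than at d0 with intervals that do not overlap. Sox7 was earlier at d2 than at d0, at 17.25 (9.25 to 23), again with intervals apart. These shifts were picked from the fits of all loci and states by their intervals alone. The d0 fits pooled cells of both series, and no background over all windows is given for shifts of the fitted score.

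Hand1, a basic helix-loop-helix factor of heart, trophoblast and extraembryonic mesoderm, lies at chr11:57600001-57680000, and Mesp1, the factor of nascent cardiovascular mesoderm, at chr7:86880001-86960000 next to its paralogue Mesp2 (mm9 bins). Hand1 ranged from 91.6% at d3 to 100% at d5, and Mesp1 from 93.4% at d4 to 100% at d2 and d5. The Mesp1 low rests on that same d4 cell, without which its d4 share was 98.4%. Hand1 lay 480 to 720 kb from the lower edge of a run at 50% or more of 5.76 to 7.68 Mb, and Mesp1 well inside a run of 4.08 to 6.24 Mb. In cells with scores of 5 to 40%, Hand1 had already replicated in 42 of 48 at d0 and 25 of 33 at d7, and Mesp1 in 47 of 48 and 29 of 33. At d2 the counts were 22 and 20 of 38, and at d3 5 and 7 of 12, in cells with lower mean scores (21.5% and 23.6%, against 26.7% at both d0 and d7). At d0 few of these cells had the loci unreplicated, and the fitted scores give only upper bounds. At d7 the upper bound was 22 for Hand1 and 16.25 for Mesp1, and at d0 it was 19.75 and 15. The fits placed Mesp1 at 20.75 at d2 (17 to 24.5) and 20.25 at d3 (16.5 to 27), above the d0 bound, and Hand1 at 18.75 at d2 (17.25 to 20). The limits stated for the fitted shifts of Gata4 and Sox7 hold here too.

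The lowest d0 values of the early loci came from few cells. In the 50 previous-series d0 cells the mean window shares were 99.8% for Gata4, 99.3% for Sox7, 97.1% for Hand1 and 99.8% for Mesp1. In the 9 present-series d0 cells they were 70.1%, 81.6%, 64.6% and 71.2%. Without the 3 cells that did not follow the mean profile they were 98.6%, 100%, 90.9% and 87.9% in 6 cells. With the 9 present-series cells alone the d0 to d7 difference of Hand1 was 31.9 points and that of Kdr 33.1 points, past the 30-point size. Both calls depend on the 3 cells. Without them the present-series d0 share was 90.9% for Hand1 and 74.2% for Kdr. These are less than 30 points below the shares of all d7 cells, 97.6% and 94.1%. In G1 cells, which have not begun replication, 2 of 574 locus calls were replicated, and 1.24% of bin calls.

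**Figure D3:**
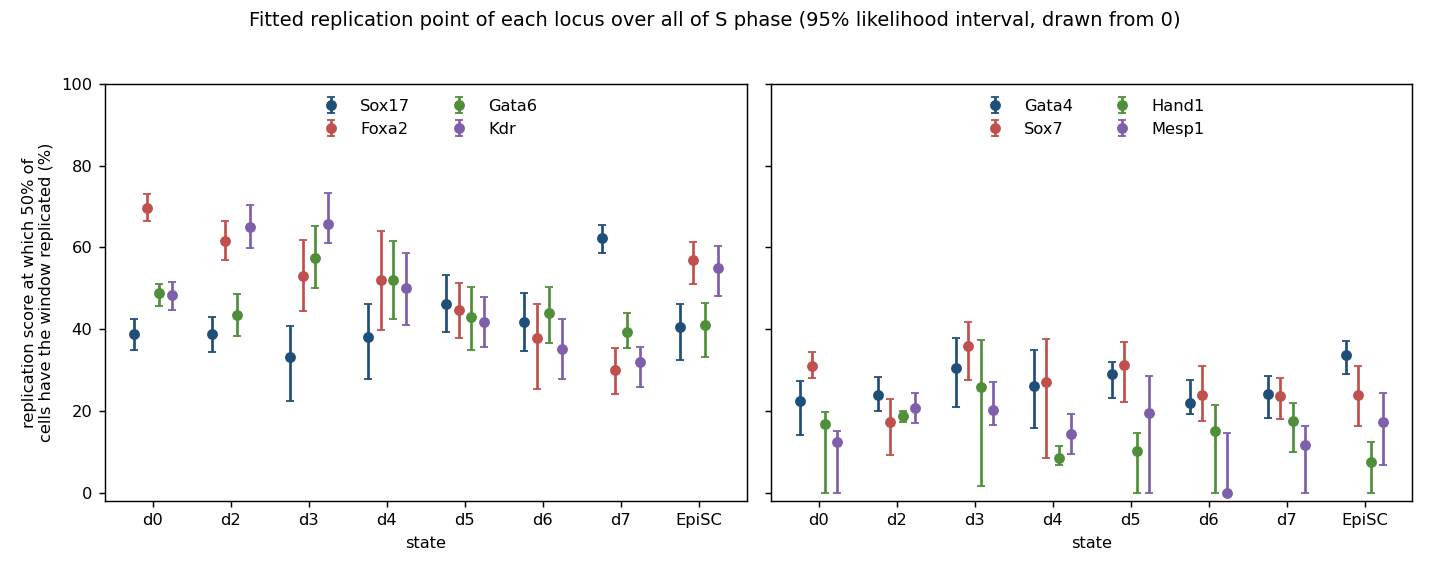
Replication score (percentage of autosomal bins replicated) at which 50% of cells have the window replicated, by state, from logistic fits over cells with scores of 5 to 95%; bars are 95% likelihood intervals, and points and bars below 0 are drawn at 0. Foxa2 moves from 69.75 at d0 to 30 at d7 and Sox17 from 38.75 to 62.25, and the early loci stay at 36 or below.

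Within single cells the order of Sox17 and Foxa2 was reversed between d0 and d7. At d0 43 of 59 cells had replicated Sox17 and not Foxa2, and 1 cell the opposite. At d7 5 cells had replicated Sox17 alone and 61 Foxa2 alone. On the days between, cells of the first and second kind numbered 22 and 0 (day 2), 5 and 0 (day 3), 8 and 4 (day 4), 3 and 4 (day 5), and 3 and 2 (day 6). EpiSC had 9 cells with Sox17 alone and none of the opposite kind among 26. Both had replicated in 14 EpiSC cells, against 9 of 59 at d0. For Foxa2 and Kdr, 34 of 59 d0 cells had Kdr alone and 2 Foxa2 alone, while at d3 5 of 13 had Foxa2 alone and none had Kdr alone. At d7 89 cells had replicated both, 8 Kdr alone and 1 Foxa2 alone.

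Over all 8 loci a cell had a median of 7 replicated in embryonic stem cells, 6 from day 2 to day 4, and 7 from day 5 on and in EpiSC. Counts of replicated loci per cell were not matched in score. Mean scores were 52.3, 53.7 and 53.4% on days 2, 3 and 4. They were 56.3% at d0, 55.6, 54.5 and 56.4% on days 5, 6 and 7, and 57.1% in EpiSC. Among cells with a call at every locus, all 8 had replicated in 5 of 57 from d0 (8.77%) and 23 of 99 from d7 (23.2%). The share was highest in between, in 9 of 20 cells on day 5 (45%) and 9 of 21 on day 6 (42.9%), and it was 9 of 26 in EpiSC (34.6%). The 4 early loci had all replicated in 54 of these d0 cells and 95 of these d7 cells. Among the other 4 loci the window shares over the 8 states were closest for Sox17 with Gata6, at a mean absolute difference of 14.8 points, and for Foxa2 with Kdr, at 15.7 points. Pairs of the early loci differ by 3.18 points at most, which follows from their shares all being near 100%.

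**Figure D4:**
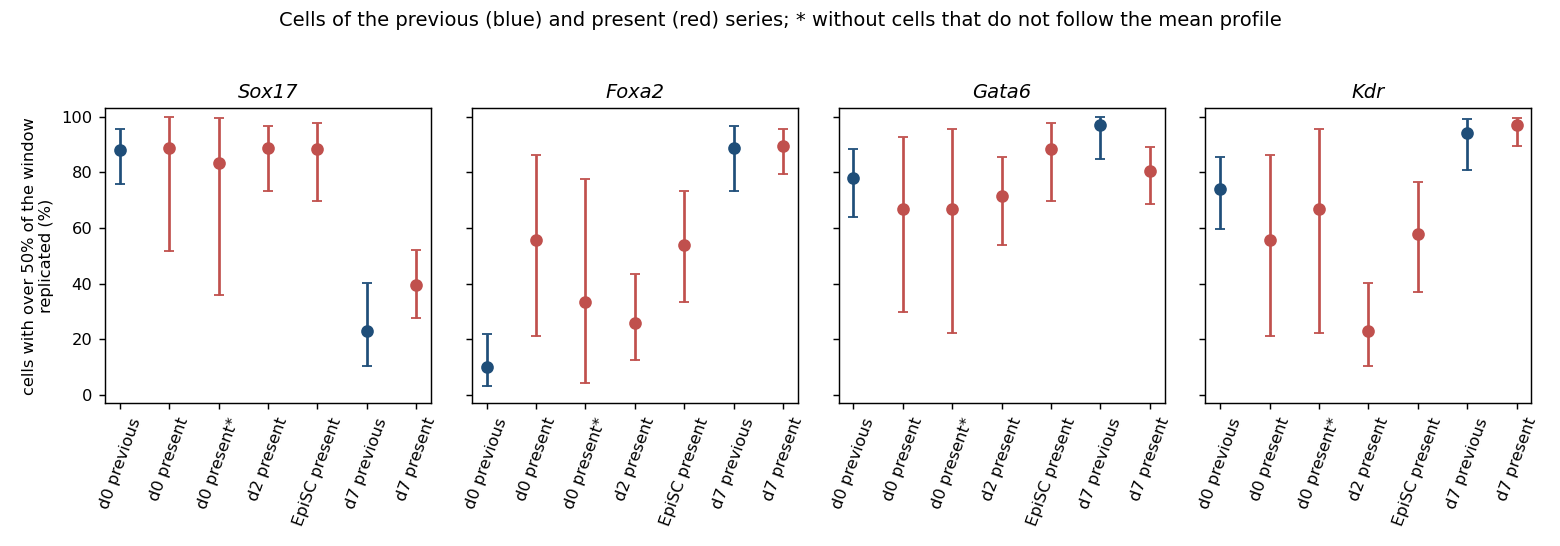
Percentage of cells with over 50% of the window replicated, for the previous (blue) and present (red) series, with exact 95% intervals; the asterisk marks present-series d0 cells without the 3 that did not follow the mean profile. At d7 both series place Sox17 low (22.9 and 39.4%) and Foxa2 high (88.6 and 89.4%), whereas at d0 Foxa2 is at 10% in 50 previous-series cells and 55.6% in 9 present-series cells.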

How the data were processed

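Single cells were sorted by DNA content, amplified with SeqPlex and sequenced as single reads, per the labels' protocols. The submitters' processing notes name cutadapt, BWA 0.7.10-r789 and Picard with mm9; their order and settings are not given in the sources used here. Each 80 kb bin of each cell holds a deposited score of 1 (replicated), -1 (unreplicated) or 0 (no data), which the authors made after correction with a merged G1 control, per the file headers. The deposited replication score is the fraction of called autosomal bins replicated, shown here as a percentage. In the 293 cells used, at least 26813 of 30890 bins were called.

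Shares were computed with Python 3.11.15, numpy 2.4.6 and scipy 1.17.1. Bins called in under 50% of a state's cells were left out, and a cell counted as replicated when over 50% of a window's called bins were. Backgrounds are all windows of 11 bins. The logistic fits took 1% of calls as wrong. Named genes are the 8 members. Members, windows and tests were chosen with earlier results of these data known. The scripts were tested on simulated data. The 7 cells with labels that name 2 days were left out. Alternatives varied the window, score range, size, series of origin, cell filters and measure. Gene order comes from RefSeq names.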

Additional observations from a re-analysis of the deposited data

How the results depend on the processing

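Of 224 alternative values for the members' differences, 11 moved by more than the counting error, and 1 of a difference past 30 points changed sign. Some small differences also changed sign. For example, Gata4 from d0 to d7 went from 3.84 to -0.213 points without cells of an area under the curve below 0.8. In the comparisons among d0, d7 and EpiSC, the only ones put through every alternative, the 6 differences past 30 points kept their sign in 55 of 56 alternatives and their size in 50; the exception in sign was Foxa2 from d0 to EpiSC, -9.60 with present-series cells only. The count of earlier loci from d0 to d7 was 1 and became 2 with scores of 45 to 65%, a size of 20 points, present-series cells only, or a 10-point shift of the fitted score. With present-series cells only the 2 were Kdr (33.1 points) and Hand1 (31.9 points), and Foxa2 fell under the size at 25.7 points. Without the d0 cells that did not follow the mean profile, neither Kdr nor Hand1 was past 30 points there, as given above. The count of later loci became 0 at a size of 40 points. From d0 to EpiSC the count of earlier loci was 1 and became 0 with 800 kb either side, at 40 points, or with cells matched in score; the count of later loci, 0, became 1 by the fitted score. From EpiSC to d7 the count of earlier loci was 2 and became 0 with 800 kb either side and 1 at 40 points; that of later loci, 1, became 2 by the fitted score. Requiring 80% of a window's bins lowered the pooled share of cells replicated from 83.1 to 70.3%. The alternative without the 4 cells marked by the authors' filters was added after seeing the data and changed no count. Other choices of cells for the 6 differences past 30 points in the day-by-day comparisons were also added then, and those that ended a call stand beside the results; without cells of an area under the curve below 0.8 all 6 stayed past 30 points. Besides the d0 cells, 1 cell at d4 and 3 at d7 did not follow the mean profile. The causes were not tested. States with 13 to 26 cells have wide intervals. No paired analysis was possible because the replicate numbers only name single cells.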
